A study of Mus musculus with 2 samples.

Results

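The chromosome 13 zinc finger cluster of the mouse was defined by position, as every row of the WT and G34R RNA-seq tables that starts between 65.2 and 67.7 Mb of chromosome 13 (mm9). It held 52 of 26127 rows. Of these, 25 were zinc finger genes, by a symbol beginning with Zfp, the name Rsl1 or at least 3 C2H2 finger motifs in the annotated coding sequence. A further 5 were short gene models with 1 or 2 such motifs. The remaining 22 were 10 neighbours with at most 50% of their exon sequence repeated elsewhere in the genome and 12 repeated neighbours, among them non-coding RNAs and vomeronasal receptor pseudogenes. The interval was picked with the RPKM of these same libraries in view, so its ratios are given as a description.

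RNA was sequenced from 1 library of WT and 1 library of G34R mouse embryonic stem (ES) cells, both of strain 129S1/SvImJ, under 20 passages and grown in serum with leukaemia inhibitory factor. WT cells carried unmodified H3f3a and H3f3b, the genes for the histone variant H3.3. G34R cells carried a single mutant H3f3a allele encoding an arginine in place of glycine 34, beside a normal H3f3a allele and unmodified H3f3b. The mutant minigene was knocked into H3f3a and brought under the gene's own promoter with Cre recombinase in selected clones, and whether 1 clone or several gave the sequenced RNA was not stated. The study asked how the mutation altered chromatin and transcription, with attention to the KDM4 histone demethylases. With 1 library per cell line no difference between the cells could be set against replicate error, and genotype, clone and library cannot be told apart. No p-value is given. Intervals are 95% limits for counting error only, from reads estimated from RPKM.

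The libraries held an estimated 88.4 M (WT) and 72.7 M (G34R) reads, so that 1 read per kilobase was worth 0.0113 and 0.0137 RPKM. Over all 13366 rows with at least 0.25 RPKM in 1 sample the median log2 (G34R/WT RPKM) was -0.067, and 9.64% were more than 2-fold lower and 5.79% more than 2-fold higher in G34R cells. H3f3a itself was at 8.17 RPKM in WT and 4.89 RPKM in G34R cells, and H3f3b at 68.84 and 58.76 RPKM. The mutant allele was not counted apart here. All 8 ES cell markers passed 0.25 RPKM. Nanog (127.07 and 52.24 RPKM) was past 2-fold, Utf1 went the other way (61.89 and 108.56 RPKM), and the other 6, such as Pou5f1 (194.34 and 189.46 RPKM), had ratios from -0.38 to 0.024. All 5 primitive endoderm markers passed, 3 of them more than 2-fold higher in G34R cells, 1 of 4 mesoderm markers passed and was higher (Eomes, 0.43 to 1.88 RPKM), and of 3 neural markers found 2 passed and Olig2 went from 0.03 to 17.71 RPKM. Of 5 fibroblast markers 2 passed, Pdgfrb was at 0.47 and 0.06 RPKM, and Dcn was listed at 0 in both libraries. Alb, which defines liver, was listed at 0 in both. The part of these differences in cell state in the values of the cluster was not tested.

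C2H2 zinc finger proteins carry tandem fingers, each folded around zinc by a pair of cysteines and a pair of histidines and each able to contact a few bases of DNA. In mammals many also carry a KRAB domain, which recruits Trim28 and, through it, the H3K9 methyltransferase Setdb1 to silence chromatin, with transposable elements as the best known targets in ES cells. Their genes multiplied by tandem duplication and lie in clusters of close relatives. Rsl1 (regulator of sex-limitation 1) of this cluster is known as a repressor of male-specific genes in the liver of female mice. Because copies can be alike over whole fingers, short reads from one copy may align to another.

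How alike the copies are is shown by the following stretch of a Zfp640 exon at chr13:66771772-66771821 (mm9, minus strand). It is as long as a read (50 bases), it was found at 120 places in the genome, every one within the interval, and 5 members held it: Zfp640, Gm10323, Gm10324, Gm16512 and Gm10139. Capitals mark codons for the histidines and cysteines of the finger.
Zfp640 exon: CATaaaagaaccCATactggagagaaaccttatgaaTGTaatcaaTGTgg
The STAR aligner by default discards reads that fit more than 10 places. Windows at more than 10 places made up 65.2% of the exon sequence of Gm16512, 36.8% of Gm10324, 34.8% of Zfp640, 22.0% of Gm10323 and 10.7% of 2410141K09Rik.

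Likeness was lower among the genes at the far end of the interval. Rsl1 and Zfp429 shared the longest stretch printed here, 163 bases at chr13:67282874-67283036 (mm9, plus strand), and 353 windows in all, which were 24.3% of those of Rsl1 and 19.2% of those of Zfp429.
Rsl1 and Zfp429, shared exon run: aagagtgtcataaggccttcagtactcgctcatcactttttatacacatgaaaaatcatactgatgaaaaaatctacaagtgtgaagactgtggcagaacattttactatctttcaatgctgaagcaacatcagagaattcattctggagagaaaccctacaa

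Across the cluster, the steepest negative ratios of the zinc finger genes lay in one stretch. A ratio below 0 was found for 62.5% of the 24 that passed 0.25 RPKM, near the 55.0% of all rows that passed. Of the 52 members 47 reached 0.25 RPKM in 1 sample, and 16 of these were more than 2-fold lower (background 9.64%) and 5 more than 2-fold higher (background 5.79%) in G34R cells. More than 4-fold lower were 11 members, against 3.85% of all rows. Of these 11, Gm7822, Gm17353, Gm17514, Gm10772 and Gm17449 reached 0.25 RPKM in WT cells only. Gm10772 and Gm17449 were listed at 0 in G34R cells and count through the value of 0.01 put in its place. Several of the 11 share windows and are not separate observations. Of the 21 members past 2-fold, 6 lower and 3 higher ones reached 0.25 RPKM only in the library where they were higher and had to differ. Among the 37 members with at least 0.25 RPKM in both libraries 10 were lower and 2 higher. The zinc finger genes alone had 8 lower and 1 higher of 24 that passed, with a median log2 (G34R/WT RPKM) of -0.49. Among the 22 zinc finger genes with at least 0.25 RPKM in both libraries 7 were lower and 1 higher. The other rows had 8 lower and 4 higher of 23, with a median of -0.38. Of these, the 5 short finger models had 4 lower and 0 higher. The 6 single-copy neighbours that passed had 1 lower and 1 higher, and the 12 repeated neighbours 3 lower and 3 higher. Uqcrb, Gm10767, Mterfd1 and Ptdss1, of the single-copy class with at most 50% of windows repeated, divide the interval. The zinc finger genes on either side were described apart, a split made after the values were seen. Before Uqcrb all 6 zinc finger genes passed, 5 were more than 4-fold lower, and the median was -2.51. One of the 5, Gm17353, rested on 6 and 1 reads and passed in WT cells only, and the other 4 passed in both libraries. After Ptdss1, 18 of 19 passed, 3 were lower and 1 higher, none past 4-fold, and the median was -0.081, close to that of all rows. Summed over genes, RPKM went from 29.78 to 7.04 before Uqcrb and from 33.74 to 26.28 after Ptdss1.

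**Figure D1:**
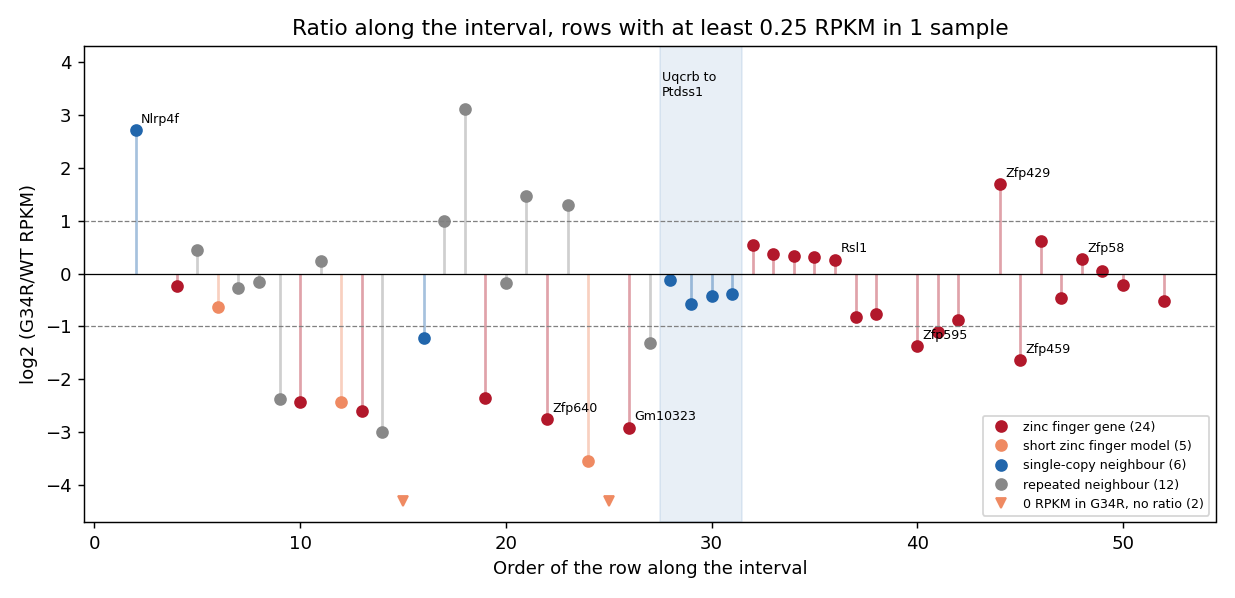
log2 (G34R/WT RPKM) of the 47 members with at least 0.25 RPKM in 1 sample, by their order along the interval, 1 library per cell line. Dashed lines mark 2-fold, the shaded band spans Uqcrb to Ptdss1, and triangles mark the 2 rows at 0 RPKM in G34R cells. The steep negative ratios lie before the band, and after it most zinc finger genes sit between the dashed lines.

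Before Uqcrb lay the near-identical finger genes. Zfp640, a gene with 7 finger motifs, was at 5.83 RPKM in WT and 0.87 RPKM in G34R cells, or an estimated 417 and 51 reads. Its log2 ratio was -2.74 (interval -3.20 to -2.33). Gm10323, also with 7 motifs, was at 8.80 and 1.17 RPKM (632 and 69 reads), a log2 ratio of -2.91. 2410141K09Rik, with 3 motifs and the most reads of the finger genes here after Zfp369, was at 6.61 and 1.30 RPKM (1001 and 162 reads). Its log2 ratio was -2.35 (interval -2.60 to -2.11). These genes were thus more than 4-fold lower in the G34R library. Of their windows 88.7% (Zfp640), 83.4% (Gm10323) and 47.9% (2410141K09Rik) recurred elsewhere, nearly all inside the interval, so 2410141K09Rik is the one among them with a majority of sequence of its own.

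Smaller models of the same stretch were lower too. Gm16512, with 3 motifs and every window repeated, was at 4.94 and 0.82 RPKM (124 and 17 reads). Gm10324 was at 8.27 and 1.53 RPKM (342 and 52 reads). Gm17404, which lies beside Gm10323, was at 8.56 and 0.73 RPKM (129 and 9 reads). Their log2 ratios were -2.59, -2.43 and -3.55, and all 3 counting intervals lay below the 2-fold line. Gm10772 (2.09 RPKM, 16 reads) and Gm17449 (1.0 RPKM, 15 reads) were listed at 0 in G34R cells, so no ratio is given. Gm17353 rested on 6 and 1 reads (0.27 and 0.05 RPKM, interval -7.83 to 0.74) and cannot be placed. Gm10139 was at 2.26 and 1.45 RPKM (34 and 18 reads), and its interval of -1.55 to 0.23 also held 0.

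Since reads can move between such copies, the 10 finger rows linked to Zfp640 by shared windows were also summed. Together they held an estimated 2716 reads in WT and 379 in G34R cells, 5.90-fold fewer relative to depth, and their RPKM summed to 48.63 and 7.92. Rows of different length enter the RPKM sum, and reads lost to the limit on places or assigned to unannotated copies are in neither sum. How reads were divided among the copies was not tested. Of the 10 rows 9 were more than 2-fold lower (background 9.64%), but rows that share windows are not separate observations. Gm17353, with an interval that held 0, Gm10772 and Gm17449 reached 0.25 RPKM in WT cells only. Gm10139 was within 2-fold. Zfp369, a neurotrophin receptor interacting factor also called Nrif2, lies in the same stretch but shared 1.19% of its windows. It was at 3.33 and 2.83 RPKM (1735 and 1214 reads), a log2 ratio of -0.23 (interval -0.34 to -0.13), within 2-fold.

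**Figure D2:**
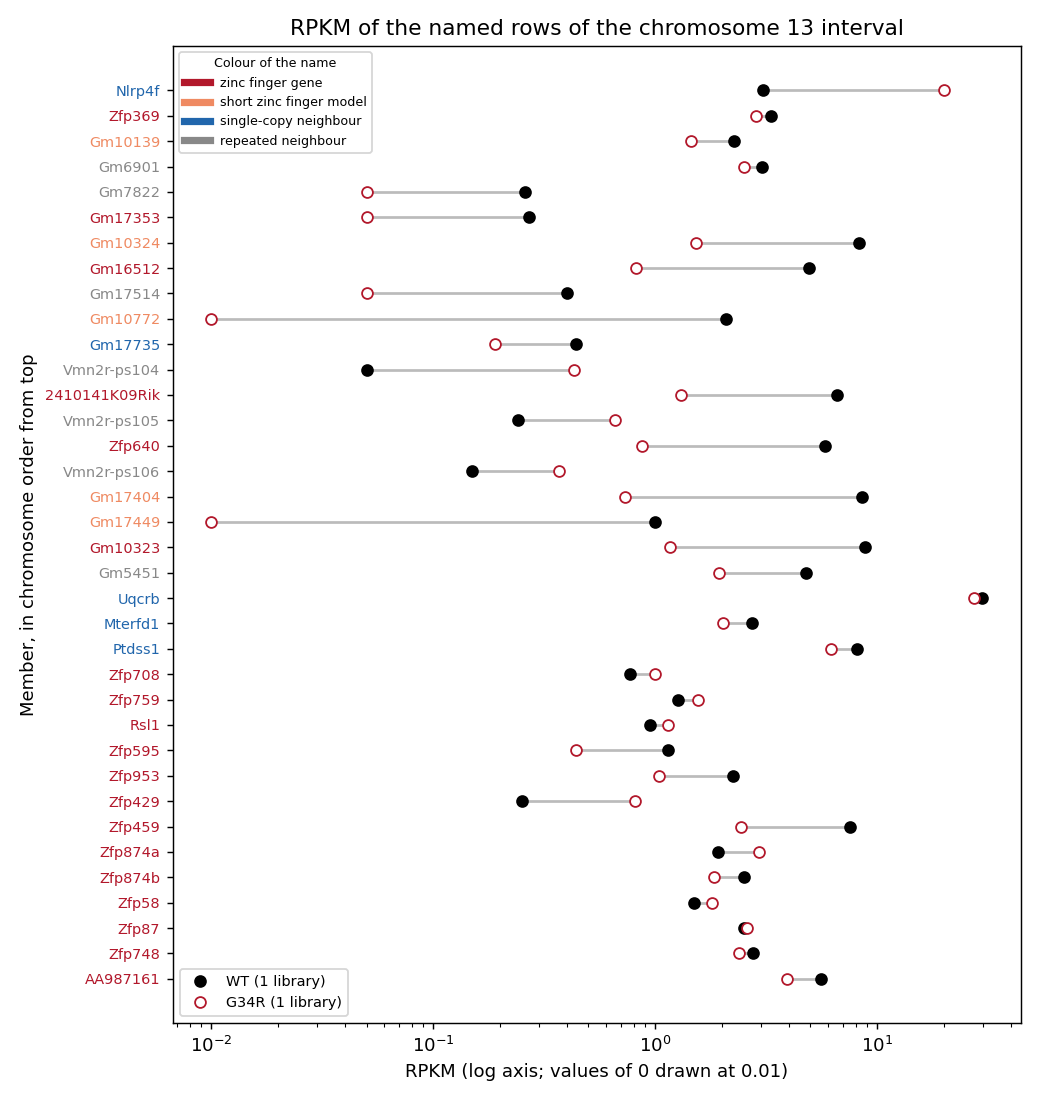
RPKM on a log axis of the 36 named members in chromosome order, 1 WT library (filled) and 1 G34R library (open), with values of 0 drawn at 0.01. The pairs from Gm10324 to Gm10323 that belong to finger genes are far apart, whereas Uqcrb (29.67 and 27.35 RPKM) and Zfp87 (2.50 and 2.60 RPKM) nearly coincide.

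After Ptdss1 the zinc finger genes had between 3 and 30 finger motifs (median 15) and repeated far less, from 0.24% to 33.8% of their windows. Their levels were low, with a median of 1.14 RPKM in WT and 1.04 RPKM in G34R cells. Within 2-fold were 14 of the 18 that passed, 8 above 0 and 6 below, from -0.87 to 0.60. The row furthest below 2-fold was Zfp459, a gene with 3 motifs and 7.01% of windows repeated. It was at 7.57 RPKM in WT and 2.44 RPKM in G34R cells (2168 and 575 reads). It was the most abundant zinc finger transcript of this stretch in WT cells, and in G34R cells AA987161, Zfp874a and Zfp87 were above it. Its log2 ratio was -1.63 (interval -1.77 to -1.50).

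Zfp595, with 20 motifs and 0.53% of windows repeated, was at 1.14 and 0.44 RPKM (547 and 174 reads). Its log2 ratio was -1.37 (interval -1.63 to -1.12). Its neighbour Zfp953 was at 2.24 and 1.04 RPKM (984 and 376 reads), a log2 ratio of -1.11 (interval -1.28 to -0.93). The exons of these neighbours overlap by 259 bases on the same strand, so some of their reads cannot be told apart. Zfp595 and Zfp953 were the other 2 genes past 2-fold downwards here. They lie in a run of 6 neighbouring genes, picked out after seeing the values, that were lower in G34R cells. The 4 others were below the level set for naming. Zfp455 was at 0.30 and 0.17 RPKM, Zfp458 at 0.44 and 0.26 RPKM and Zfp456 at 0.75 and 0.41 RPKM. Zfp457 was at 0.09 RPKM and listed at 0 in G34R cells.

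The 5 rows nearest Ptdss1, also picked out after seeing the values, had ratios above 0 and under 2-fold, and the counting intervals of 2 of them held 0. The first row of Zfp708 was at 0.77 and 1.0 RPKM, and the second at 0.71 and 0.89 RPKM (interval -0.11 to 0.77). Zfp759, with 21 motifs, was at 1.26 and 1.56 RPKM (interval 0.10 to 0.51). Zfp712, below the level set for naming, was at 0.45 and 0.65 RPKM. Rsl1, the regulator of sex-limited liver genes, was at 0.95 RPKM in WT and 1.14 RPKM in G34R cells (138 and 137 reads). Its log2 ratio of 0.26 had an interval of -0.08 to 0.62, so no difference could be seen for Rsl1 at this depth. The 7 listed genes that Rsl1 is known to control or that belong to the same male liver programme, among them C4a, C4b and Mup1, were all under 0.25 RPKM in both libraries.

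Zfp429 was the 1 zinc finger gene of the cluster more than 2-fold higher in G34R cells. It was at 0.25 and 0.81 RPKM (45 and 120 reads), a log2 ratio of 1.70 (interval 1.19 to 2.22). Its windows were 24% repeated, mostly in Rsl1 as printed above, and Zfp429 and Rsl1 had separate counting intervals. Zfp429 also shared 197 windows (10.7%) with Zfp456, which went the other way (320 and 144 reads, log2 ratio -0.87). The pair Zfp874a and Zfp874b, which share 484 windows, went opposite ways. Zfp874a was at 1.92 and 2.92 RPKM (log2 ratio 0.60) and Zfp874b at 2.52 and 1.84 RPKM (log2 ratio -0.45). Whether reads passed between Zfp874a and Zfp874b, or among Zfp429, Rsl1 and Zfp456, was not tested.

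The last genes of the interval were within 2-fold. Zfp58, with 15 motifs, was at 1.5 and 1.81 RPKM (362 and 360 reads), a log2 ratio of 0.27 (interval 0.058 to 0.49). Zfp87, whose exons overlap those of Zfp58 by 223 bases, was at 2.50 and 2.60 RPKM (interval -0.12 to 0.23). Zfp748, with 23 motifs, was at 2.77 and 2.38 RPKM, a log2 ratio of -0.22 (interval -0.35 to -0.087). AA987161, with 30 motifs the most of any member, lay next to the interval's edge. It was at 5.61 and 3.92 RPKM (2410 and 1386 reads), a log2 ratio of -0.52 (interval -0.61 to -0.42).

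The neighbours that are not zinc finger genes did not follow one direction. Nlrp4f, a member of the NLR family found in oocytes and early embryos, was at 3.06 RPKM in WT and 20.00 RPKM in G34R cells (1014 and 5453 reads). Its log2 ratio of 2.71 (interval 2.61 to 2.81) was the highest of the members with over 1 RPKM, and 7.80% of its windows were repeated. Uqcrb, a subunit of respiratory complex III, was at 29.67 and 27.35 RPKM, with 28.1% of its windows repeated. Ptdss1, a phosphatidylserine synthase with no repeated window, was at 8.08 and 6.19 RPKM (log2 ratio -0.38). Mterfd1, of the mitochondrial transcription termination factor family, was at 2.72 and 2.03 RPKM. Of its windows 23.6% were repeated, and 19.7% were at more than 10 places. The genes between the stretches of fingers were therefore lower in G34R cells by less than 2-fold. Their ratios ran from -0.57 (Gm10767, 0.40 and 0.27 RPKM, 22.7% of windows repeated, below the level set for naming) to -0.12 (Uqcrb).

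Of the 6 repeated neighbours past 2-fold, only Gm5451 had at least 0.25 RPKM in both libraries, so their number in each direction is not read further. The higher ones were vomeronasal receptor pseudogenes of low level and few reads. Vmn2r-ps105 was at 0.24 and 0.66 RPKM (14 and 32 reads) and Vmn2r-ps106 at 0.15 and 0.37 RPKM (9 and 18 reads). Vmn2r-ps104 was at 0.05 and 0.43 RPKM (3 and 21 reads, interval 1.34 to 5.48). They share up to 75.2% of their windows pairwise, so they are not separate observations. The lower ones were Gm5451 and the non-coding RNAs Gm7822 and Gm17514. Gm5451, 66.0% of whose windows recur outside the interval, was at 4.79 and 1.93 RPKM (294 and 97 reads, log2 ratio -1.31). Gm7822 (12 and 2 reads) and Gm17514 (39 and 4 reads) went from 0.26 and 0.40 RPKM to 0.05 RPKM each. The non-coding RNA Gm17735, counted with the single-copy neighbours at 49.8% of windows repeated, was at 0.44 and 0.19 RPKM (43 and 15 reads). Gm6901, with 88.8% of windows repeated, was at 3.04 and 2.51 RPKM (interval -0.66 to 0.10). The 16 members that were not named by rule ranged up to 0.75 RPKM in WT and 0.89 RPKM in G34R cells, and 5 members never reached 0.25 RPKM.

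Repeated sequence and lower values coincided for most finger rows before Uqcrb. All 21 members with over 50% of windows repeated lay there, and 11 of them were more than 2-fold lower and 3 higher (background 9.64% and 5.79%). Of the lower ones Gm7822, Gm17353, Gm17514, Gm10772 and Gm17449 reached 0.25 RPKM in WT cells only. The 3 higher ones reached it in G34R cells only, so all of these had to differ. Among members with at most 50% repeated, 26 passed, 5 were lower and 2 higher. Of these lower ones Gm17735 reached 0.25 RPKM in WT cells only. Of the 10 finger rows before Uqcrb other than Zfp369, the repeated share ran from 47.9% to 100% (median 91.1). Position and repetition therefore cannot be told apart there. Zfp459, Zfp595, Zfp953 and 2410141K09Rik were lower with at most 50% of their windows repeated.

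**Figure D3:**
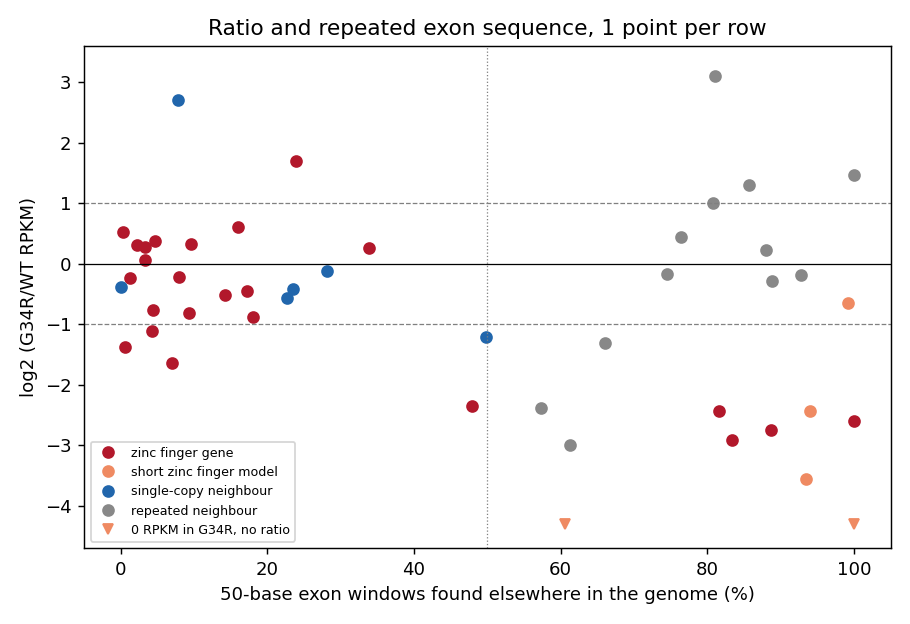
log2 (G34R/WT RPKM) against the share of 50-base exon windows found elsewhere in the genome, 1 point per member with at least 0.25 RPKM in 1 sample. Dashed lines mark 2-fold and the dotted line 50%. Finger genes at the right are all negative, finger genes at the left scatter about 0 with 2410141K09Rik (47.9% repeated), Zfp459, Zfp595 and Zfp953 lower and Zfp429 higher, and repeated neighbours lie on both sides.

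The values just inside and outside the edges chosen for the interval were as follows. At the proximal edge Olfr466 and Nlrp4f lay inside, with Olfr466 listed at 0 in both libraries. Hiatl1 (6.78 and 6.54 RPKM) and Prss47 (listed at 0 in both) lay outside. At the distal edge AA987161 and 9430065F17Rik (0.02 and 0.08 RPKM) lay inside, whereas A530054K11Rik (2.94 and 2.65 RPKM) and Zfp738 (2.09 and 2.28 RPKM) lay outside, both within 2-fold.

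The 2 stretches also differed in the sequence before their genes. RefSeq promoter windows (GRCm38.p6, from 250 bases before to 50 after the annotated start) were found for 24 of 51 member names, 19 of them zinc finger genes. Those printed belong to a pair of lower genes of the first stretch, to Rsl1 and Zfp429, which are alike but differed in ratio, and to the lower genes Zfp595 and Zfp459. Capitals mark the CCAAT box and the E-box CACGTG. They also mark an element that, on either strand, begins with ACTACA, goes on with 2 bases of any kind and ends with TCCC. This element was searched after the windows had been read.
2410141K09Rik promoter (chr13:66441069-66441368, minus strand): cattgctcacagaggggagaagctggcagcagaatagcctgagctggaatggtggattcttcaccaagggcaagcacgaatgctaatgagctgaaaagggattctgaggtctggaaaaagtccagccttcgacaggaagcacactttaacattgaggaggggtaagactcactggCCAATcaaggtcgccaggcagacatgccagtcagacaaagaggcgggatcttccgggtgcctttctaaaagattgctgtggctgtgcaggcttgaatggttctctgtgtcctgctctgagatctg
Zfp640 promoter (chr13:66680754-66681053, minus strand): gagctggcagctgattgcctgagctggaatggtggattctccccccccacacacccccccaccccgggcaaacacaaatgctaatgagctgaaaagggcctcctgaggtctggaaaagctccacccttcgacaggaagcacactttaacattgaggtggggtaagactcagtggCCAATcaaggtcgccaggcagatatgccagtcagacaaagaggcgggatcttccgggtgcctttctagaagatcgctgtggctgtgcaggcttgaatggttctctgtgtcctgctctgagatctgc
Rsl1 promoter (chr13:67172932-67173231, plus strand): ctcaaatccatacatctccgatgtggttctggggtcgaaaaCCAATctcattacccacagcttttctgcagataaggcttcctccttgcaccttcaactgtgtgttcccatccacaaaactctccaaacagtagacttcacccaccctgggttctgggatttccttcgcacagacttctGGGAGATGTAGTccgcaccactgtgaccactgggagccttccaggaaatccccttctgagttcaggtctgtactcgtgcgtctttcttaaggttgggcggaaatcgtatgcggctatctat
Zfp429 promoter (chr13:67399718-67400017, minus strand): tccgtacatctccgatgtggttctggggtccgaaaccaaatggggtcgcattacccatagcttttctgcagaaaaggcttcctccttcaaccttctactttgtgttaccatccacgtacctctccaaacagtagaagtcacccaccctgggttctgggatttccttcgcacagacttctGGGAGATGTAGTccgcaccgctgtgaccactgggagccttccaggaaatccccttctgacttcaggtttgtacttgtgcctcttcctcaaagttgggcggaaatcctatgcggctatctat
Zfp595 promoter (chr13:67332511-67332810, minus strand): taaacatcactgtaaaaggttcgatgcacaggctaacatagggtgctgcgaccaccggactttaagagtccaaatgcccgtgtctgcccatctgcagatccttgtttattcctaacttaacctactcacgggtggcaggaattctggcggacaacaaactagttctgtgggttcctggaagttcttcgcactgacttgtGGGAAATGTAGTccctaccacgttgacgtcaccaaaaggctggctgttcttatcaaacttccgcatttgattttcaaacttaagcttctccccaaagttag
Zfp459 promoter (chr13:67421369-67421668, minus strand): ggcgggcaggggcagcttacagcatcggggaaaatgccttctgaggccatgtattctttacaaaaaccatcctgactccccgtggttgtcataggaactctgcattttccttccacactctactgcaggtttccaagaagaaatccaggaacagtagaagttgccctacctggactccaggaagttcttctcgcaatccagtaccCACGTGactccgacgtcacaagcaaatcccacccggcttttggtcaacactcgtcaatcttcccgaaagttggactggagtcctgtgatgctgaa
The element with the gap of 2 bases was present in 15 of the 16 zinc finger genes after Ptdss1 and in none of the 3 before Uqcrb that had a window, against 1.81% of 32851 promoters. It was also in the windows of the non-coding RNAs 9430065F17Rik and Gm17039, which lie beside Zfp748 and Zfp953 on the opposite strand. Zfp459 was the 1 gene after Ptdss1 without these letters, and its window held CACGTG, as did that of Zfp708 and 7.15% of all promoters. Genes with the element included Zfp595 and Zfp953, which were lower, Zfp429, which was higher, and genes within 2-fold. The zinc finger genes with a window but without the element were 2410141K09Rik, Zfp640, Gm17353 and Zfp459. All of these were more than 2-fold lower, Gm17353 on 6 and 1 reads. Element and stretch cannot be told apart for the first 3, and a link between element and ratio was not tested. CCAAT was found in all 3 windows before Uqcrb and in 4 of 16 after Ptdss1, against 37.4% of all promoters. GGGCGG was in 3 and TATAAA in 1 of the 16, against 35.7% and 13.6% of all promoters, and neither was in the 3. A stricter form of the element, ACTACAA, any base and TCCC, which overlaps it, was in Zfp58 alone among members and in 0.95% of promoters. The NRF1 and YY1 motifs were in no member and in 0.971% and 0.633% of promoters. These windows are not independent. The 4 windows of Gm17353, Gm10324, 2410141K09Rik and Zfp640 were 76.3% to 93.2% identical to each other, and those after Ptdss1 48.1% to 88.4% (median 53.0), with Rsl1 and Zfp429 at 87.9%. Between the stretches identity was 47.6% to 53.8%.

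A list of genes for the machinery used by KRAB zinc finger proteins also held the Kdm4 demethylases and the zinc finger genes Zfp57 and Zfp809. Its genes were past 2-fold about as often as other rows. Of 24 listed genes 23 were found, and of 23 rows that passed 1 was lower and 2 higher (background 9.64% and 5.79%), with a median log2 ratio of 0.012. Trim28, the KRAB corepressor, was at 326.77 and 222.49 RPKM, and Setdb1 at 15.06 and 15.25 RPKM. The lower gene was Zfp809, a zinc finger repressor of retroviruses that lies on another chromosome (10.51 and 4.49 RPKM). The higher genes were the maintenance DNA methyltransferase Dnmt1 (8.14 and 44.43 RPKM) and the H3K9 methyltransferase Suv39h1 (1.57 and 3.36 RPKM). Kdm4a was at 8.92 and 9.53 RPKM, Kdm4b at 6.54 and 4.57 RPKM and Kdm4c at 14.37 and 12.37 RPKM, all within 2-fold.

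Among the sets compared here, the chromosome 13 cluster taken whole was between the extremes. Its 6 zinc finger genes before Uqcrb, with a median of -2.51, were set apart after the values were seen. They are therefore not ranked against whole clusters, which include other genes. Rows named Zfp elsewhere in the genome had 26 lower and 8 higher of 317 that passed, with a median log2 ratio of -0.14. In the cluster, the 19 rows with a Zfp name or the name Rsl1 that passed had 4 lower and 1 higher. Their median was -0.22. The rest of chromosome 13 had 40 lower and 23 higher of 497, with a median of -0.082. A cluster on chromosome 4 (145 to 147.5 Mb) had 21 lower and 4 higher of 38 (median -1.27), and one on chromosome 2 (174.5 to 178 Mb) had 9 lower and none higher of 35 (median -0.72). More than 4-fold lower were 11 of the 38 on chromosome 4 and 1 of the 35 on chromosome 2. In the chromosome 13 cluster 11 of 47 were, against 3.85% of all rows. The zinc finger genes after Ptdss1, with a median of -0.081, were near the rows named Zfp elsewhere. The values for the clusters on chromosomes 4 and 2 cover every row there, single-copy genes included, for which the like value on chromosome 13 was a median of -0.42 over all 47 members that passed. No test of these differences was possible with 1 library per cell line.

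**Figure D4:**
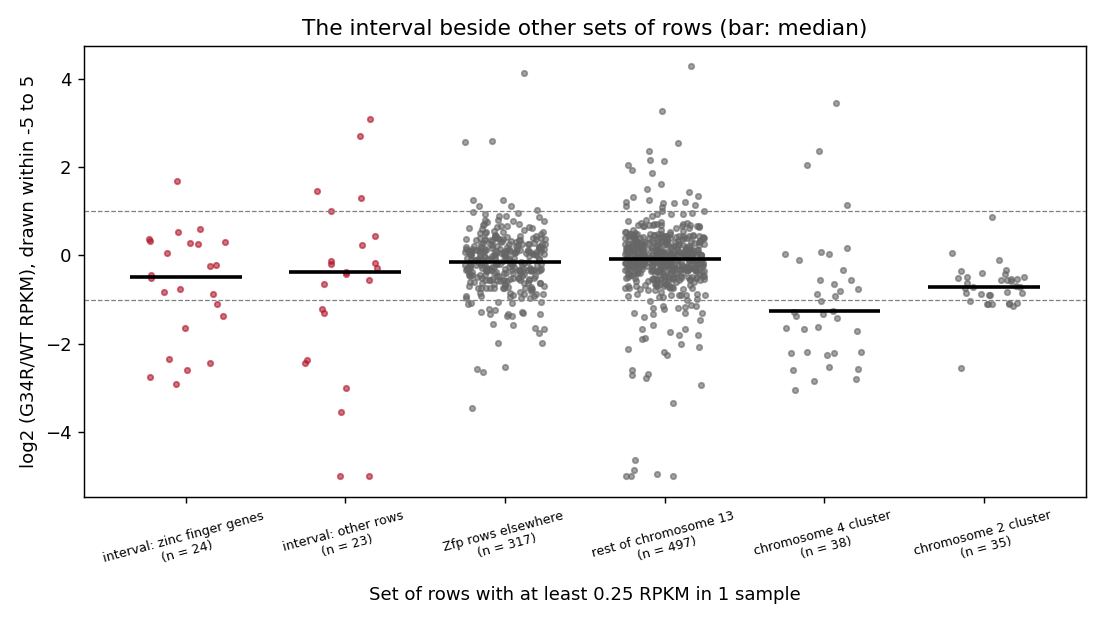
log2 (G34R/WT RPKM) of single rows with at least 0.25 RPKM in 1 sample for 6 sets of rows, with the median of each set as a bar and 2-fold as dashed lines. Values are drawn within -5 to 5, and the 2 points of the interval at -5 are rows listed at 0 in G34R cells. The zinc finger genes of the interval, chosen by name or finger motifs, spread from near -3 to 1.70 about a median of -0.49. Most of them lie between the dashed lines, as do most Zfp rows elsewhere, which were chosen by name alone.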

How the data were processed

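Total RNA (500 ng) of each cell line gave 1 stranded library, amplified for 12 cycles and read from one end over 50 bp. The authors mapped these to mm9 by STAR 2.4.2a at its default settings and counted primary alignments in Seqmonk. They merged the isoforms of a gene and divided by length, and the deposited values are RPKM with 2 decimals. The annotation release was not given in the sources used here.

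Ratios are log2 (G34R/WT RPKM), in which 0.01 replaced any lower RPKM. Rows were called past 2-fold if they had at least 0.25 RPKM in 1 sample and differed by more than 2-fold. The depth of each library came from the spacing of low RPKM values in genes of 1 exon (under 800 bp and under 6 reads), by a score that was revised 2 times after failing on simulated data. Reads per gene are RPKM times merged exon length (GENCODE M1) times depth, and ratio limits are exact binomial ones. Exon windows of 50 bases were searched on both strands of the mm9 genome, exact matches only. Members were named if they had at least 1 RPKM in 1 sample or were past 2-fold, and Rsl1, Zfp595, Zfp459 and Zfp58 always. The members, lists and splits were chosen with earlier results of these data known. As alternatives, the pseudocount, filter, scaling, threshold, interval edges and zinc finger class were each varied. The scripts were tested on simulated data. Python 3.11.15, NumPy 2.4.6, pandas 2.3.3, SciPy 1.17.1, Biopython 1.88 and matplotlib 3.10.9 were used.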

Additional observations from a re-analysis of the deposited data

How the results depend on the processing

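With 1 library per cell line no value carries a replicate error, leaving out a replicate was not possible, and the counting limits cover neither culture nor clone. No paired analysis was possible because each cell line had 1 library. Reads shared between near-identical copies limit the ratios of repeated rows before Uqcrb, though less those of Zfp369 and Nlrp4f, and depth limits rows with few reads. None of the alternatives changed the sign of a named ratio or of a median. Rescaling the libraries to equal RPKM sums or medians shifted ratios by 0.046 and 0.042 and moved no count by over 1.5 times. Of the 8 zinc finger genes more than 2-fold lower, 5 were left after adding 1 to every RPKM, 4 without members mostly repeated, 4 with the class set by name alone, and, in splits chosen after seeing the data, 3 only after Ptdss1 and 5 only before Uqcrb. The 1 higher zinc finger gene became 2 at 1.5-fold and 0 after adding 1, with at least 1 RPKM or before Uqcrb. Their median of -0.49 became -0.18 after adding 1, -0.85 in a narrower interval (65.7 to 67.5 Mb), -0.23 without members mostly repeated, -0.22 by name alone, -0.081 after Ptdss1 and -2.51 before Uqcrb. The 8 lower other rows became 3 after adding 1, 5 with at least 1 RPKM and 1 without members mostly repeated. The 4 higher ones became 2 at 3-fold and 1 after adding 1, with at least 1 RPKM or without members mostly repeated. Their median of -0.38 became -0.20 after adding 1, -0.18 with no filter, -0.64 with at least 1 RPKM, -0.49 in the narrower interval and -0.54 by name alone. Adding 1 brought all 36 named ratios nearer 0, 16 of them by more than the larger arm of their counting interval. Adding 1 shrinks low values by construction and each stricter class holds fewer genes.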
